A study of Mus musculus with 64 samples.

Results

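The cytosolic ribosomal protein genes are 84 of the 55487 rows of a mouse liver count table, chosen by symbol. The symbol is Rpl or Rps followed by a number, with nothing after it or only the ending a, x, l or al. Rplp0, Rplp1, Rplp2 and Rpsa are also included. The rule uses the symbol alone and no measured value, but it was set with earlier results of these data known. The 84 rows comprise 52 Rpl-type and 32 Rps-type rows. The symbol rule leaves out Rps3a1 and Fau, which also encode ribosomal proteins, and it takes in Rps4l, Rpl32l and Rpl6l, which the annotation calls pseudogenes. The livers came from male C57BL/6J mice fed ad libitum and were collected 4 weeks after injection of an AAV8 vector. One group, sh-Acsf3, received a short hairpin RNA against Acsf3, the mitochondrial malonyl-CoA synthetase, and its control group received sh-Ctl. Every animal therefore carried a vector, and the labels give neither the age of the mice nor the sequence of the hairpins. Each treatment was sampled every 3 h over the day at 8 Zeitgeber times (ZT, counted in hours from lights on by convention) with 4 replicates at each time, 64 libraries in all. The replicates are labelled as separate samples, and the labels do not say that each is 1 animal, so that a p-value measures the spread between samples.

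The ribosome is assembled from ribosomal RNA and one copy of most of these proteins, with the acidic stalk proteins present in pairs. The mRNAs of ribosomal proteins typically begin with a run of pyrimidines, the terminal oligopyrimidine (TOP) motif, through which mTORC1 and the RNA-binding protein LARP1 control their translation as a group. In mouse liver, the translation of these mRNAs is known to follow feeding and the circadian clock more than their abundance does. The libraries were made by a 3′ barcoded method in which each mRNA molecule is counted by a unique molecular identifier (UMI), so the values below are amounts of mRNA, not of protein or of translation. One count stands for 1 molecule whatever the transcript's length.

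RefSeq start windows (GRCm38.p6, 250 bases before to 50 after an annotated start) were found for 62 of the 84 members, with 74 windows in all. An unbroken run of at least 6 pyrimidines that reached within 10 bases of the annotated start was present in 39 of the 74 windows (52.7%), against 29.2% of all 32851 windows. A run of at least 8 was present in 40.5% of the member windows and in 13.7% of all windows. The letters CCGGAAG, searched on both strands, occurred in 35.1% of the member windows and in 8.86% of all windows. CTTTCC occurred on either strand in 50% of the member windows against 26.6% of all windows, and in the direction of transcription in 39.2% against 14.1%. CTTTCC can lie within a pyrimidine run, so these counts overlap. The 8 sequences below belong to members that passed a test of treatment or rhythm and had a window. They are shown because they hold both long pyrimidine runs and starts with none. Each runs from 15 bases before to 15 bases after the annotated start, 5′ to 3′ on the gene's strand, and capitals mark the longest pyrimidine run of at least 5 that reaches within 10 bases of the start.
Rplp2: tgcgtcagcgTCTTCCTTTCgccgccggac
Rpl18: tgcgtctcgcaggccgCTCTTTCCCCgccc
Rps18: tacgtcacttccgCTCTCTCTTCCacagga
Rpl35a: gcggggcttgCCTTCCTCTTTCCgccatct
Rpl6: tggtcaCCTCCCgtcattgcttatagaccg
Rplp0: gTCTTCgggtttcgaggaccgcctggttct
Rpl11: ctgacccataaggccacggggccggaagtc
Rpl41: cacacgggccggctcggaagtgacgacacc
The windows lie at chr7:141447636-141447665 (plus strand, Rplp2), chr7:45718056-45718085 (plus, Rpl18), chr17:33955651-33955680 (minus, Rps18), chr16:33056467-33056496 (plus, Rpl35a), chr5:121204486-121204515 (plus, Rpl6), chr5:115559452-115559481 (plus, Rplp0), chr4:136053379-136053408 (minus, Rpl11) and chr10:128549154-128549183 (minus, Rpl41). The run was 10 bases long in Rplp2 and Rpl18, 11 in Rps18 and 13 in Rpl35a, the last in the window with the longest run of 3. Rpl11 and Rpl41 had no such run at the RefSeq start. A match describes these letters only, and an annotated start need not be the start used in liver.

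The 32 sh-Ctl libraries held from 1.48 to 6.06 M UMIs (M, the SI prefix mega; median 3.13 M) and the 32 sh-Acsf3 libraries from 0.839 to 9.35 M (median 2.03 M), so the knockdown libraries were mostly shallower. Acsf3 itself ranged from 6.29 to 18.0 CPM, the UMI count scaled to a common library total, in sh-Ctl and from 0 to 7.28 CPM in sh-Acsf3, and its averaged difference was -2.23 ± 0.132 (log2, SE; edgeR adjusted p = 1.81e-21). The 7 hepatocyte markers tested summed to 59414 to 130256 CPM in sh-Ctl and to 98178 to 138098 CPM in sh-Acsf3, with 0 called higher and 1 lower. Markers of some other cells differed between the treatments, beside 8.26% of all genes called higher in sh-Acsf3. Called higher were 8 of 9 tested lymphocyte genes, 7 of 10 stellate and fibroblast genes and 6 of 10 macrophage genes. The counts were 3 of 5 for monocytes and neutrophils, 2 of 3 for cholangiocytes, 1 of 6 for endothelial cells and 0 of 5 for red blood cells. The summed lymphocyte markers ranged from 14.4 to 56.1 CPM in sh-Ctl and from 31.1 to 257 CPM in sh-Acsf3, and the stellate and fibroblast markers from 163 to 331 CPM and from 339 to 719 CPM. Pancreatic enzyme mRNAs summed to over 100 CPM in 8 libraries (6 of them sh-Acsf3) and Saa1, an acute phase gene, was over 1000 CPM in 4 sh-Ctl libraries. The part of these markers in any difference reported here was not tested. In bulk tissue, more cells of a type and more RNA per cell cannot be told apart.

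The ribosomal protein rows together took 2.73% ± 0.183 (SD, n = 32) of all sh-Ctl UMIs and 2.78% ± 0.144 (SD, n = 32) of all sh-Acsf3 UMIs. The lowest share was 2.43% (exact binomial 95% interval 2.40 to 2.45%) in sh-Ctl ZT9 replicate 2, and the highest was 3.22% (3.21 to 3.24%) in sh-Ctl ZT6 replicate 1. These intervals cover counting error only, and the spread between libraries was far wider. At ZT9, the 4 sh-Ctl libraries lay between 2.43 and 2.61% and the 4 sh-Acsf3 libraries between 2.61 and 2.94%, the widest separation of group means over the day (2.53% ± 0.0741 and 2.74% ± 0.140, SD, n = 4 each). At ZT21 the sh-Acsf3 libraries alone spanned 2.57 to 3.20%. Single libraries had an SD of 0.161 percentage points within the 16 groups. Averaged over the 8 times, the share was 0.0568 ± 0.0402 percentage points (SE) higher in sh-Acsf3, and it was higher at 6 of 8 times. On the scale used for the tests, CPM with library sizes corrected by trimmed means of M-values (TMM), the sign turned: the summed level was lower by 0.0218 on the log2 scale, with sh-Acsf3 higher at 1 of 8 times. At ZT9 the summed TMM level was 27117 ± 876 CPM in sh-Ctl and 25841 ± 2459 CPM in sh-Acsf3 (SD, n = 4 each). There 60 of 79 members were lower in sh-Acsf3, so the direction at ZT9 depended on the scale. As a share of the UMIs outside the mitochondrially encoded rows, the means were 3.36% and 3.45%. As a sum over a chosen list, the share was given no test.

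**Figure D1:**
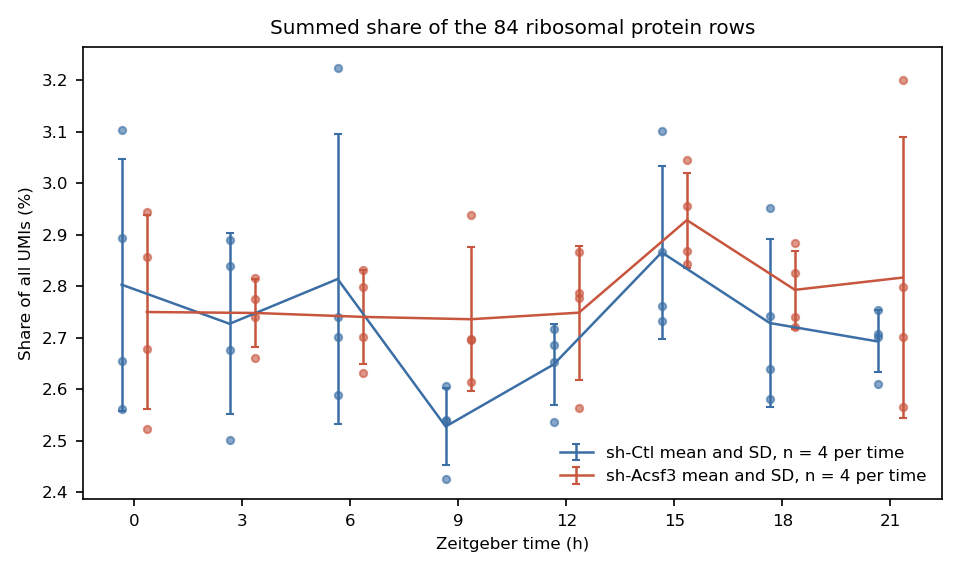
Share of all UMIs (%) taken by the 84 ribosomal protein rows, by Zeitgeber time (h), in each sh-Ctl and sh-Acsf3 library (points), with the mean and SD of the 4 libraries at each time (lines and bars). All libraries sit between 2.43 and 3.22%, and the groups overlap at most times.

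After filtering on low counts, 79 of the 84 members remained among 10097 genes tested. The 5 left out were Rpl10l with 0 UMIs, Rpl3l with 5, Rpl39l with 19, Rpl32l with 114 and Rpl6l with 296 over all 64 libraries. Rpl3l is the striated muscle paralog of Rpl3, and Rpl10l and Rpl39l are known from testis. A total of 0 in 1 library allows up to 3 UMIs, so Rpl10l was below detection at this depth. Their partners were abundant: Rpl3 averaged 223 CPM, Rpl10 226 CPM and Rpl39 141 CPM over the 64 libraries. Rps27l, a p53-responsive paralog of Rps27, was nearly as abundant as its partner by molecules, with 413 CPM against 441 CPM. Rpl36al had 31.4 CPM against 279 CPM for Rpl36a. Closely similar genes can share reads, and how the authors treated such reads is not given in the sources used here. The most abundant members were Rplp1 with 1762 CPM, Rpl32 with 1116 CPM and Rpl41 with 1109 CPM. The least abundant that passed were the pseudogene row Rps4l with 19.6 CPM, Rpl13a with 26.2 CPM and Rpl36al. Rpl13a and Rpl36al overlap annotated genes on the same strand (Gm45713 and Gm49383). So do other members, among them Rpl13 with 388 CPM, Rpl19 with 284 CPM and Rpl24 with 85.7 CPM. How reads in such overlaps were counted is not given in the sources used here, and its part in these levels was not tested. Processed pseudogene rows of these genes held little: their 319 rows took 0.0123% of sh-Ctl UMIs and 0.0125% of sh-Acsf3 UMIs.

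The ribosomal protein mRNAs of the sh-Acsf3 livers were close to their control levels. Averaged over the 8 times, 1 member (Rplp2) was called higher and 3 members (Rpl11, Rpl41, Rpl21) were called lower in sh-Acsf3 by edgeR's quasi-likelihood test at an adjusted p below 0.05. That is 4 of 79 members (5.06%), beside 14.5% of all genes tested, of which 8.26% were higher and 6.22% lower. Among the 1750 genes of at least 50 CPM, 19.9% were called. The difference was under 0.1 (log2) in either direction for 66 of 79 members (83.5%), beside 51.5% of all genes and 59.9% of genes of at least 50 CPM. The 95% interval lay within 0.25 of 0 for 72 members (91.1%), beside 73.7% of genes of at least 50 CPM. Of the members, 57 were below 0 and 22 above, with a median of -0.04. The median was -0.01 over all genes and -0.05 over genes of at least 50 CPM, and 52.7% of all genes and 69% of those of at least 50 CPM were below 0. The 47 tested Rpl-type genes and the 32 Rps-type genes had the same median, -0.04. Scaling by library size alone moved the median of all genes to 0.04 and that of the members to 0.01. It moved the calls among members to 5 higher, Rplp2, Rps12 and Rps16 among them, and 0 lower. Over all genes the calls moved the same way, from 834 higher and 628 lower to 1110 higher and 250 lower. The turn from lower to higher calls was therefore not confined to the members.

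**Figure D2:**
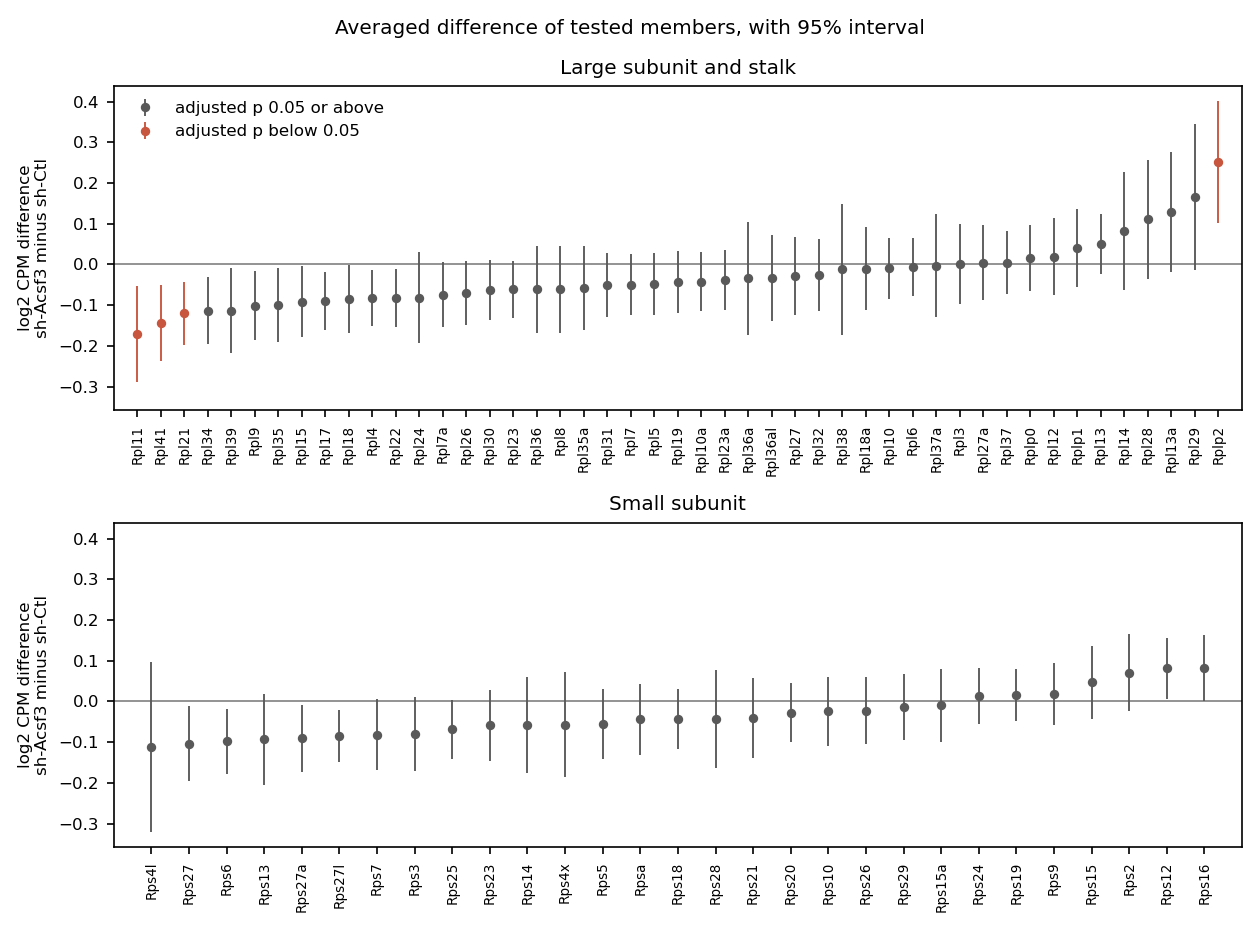
Averaged log2 CPM difference, sh-Acsf3 minus sh-Ctl, of 76 tested members, with 95% intervals, for the large subunit with its stalk (top) and the small subunit (bottom). 64 points lie within 0.1 of 0, and the 4 members with an adjusted p below 0.05 are Rplp2 (higher) and Rpl11, Rpl41 and Rpl21 (lower).

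Rplp2 encodes one of the acidic proteins of the stalk that recruits the elongation factors to the ribosome. The gene (ENSMUSG00000025508) lies at chr7:141447370-141451585 on the plus strand (GRCm38, GENCODE M21) and its main transcript has 5 exons. It ranged from 403 to 788 CPM in the 32 sh-Ctl libraries (median 488) and from 387 to 903 CPM in the 32 sh-Acsf3 libraries (median 552). The lower ends of both groups coincide, and the upper end reaches further in sh-Acsf3. The difference averaged 0.25 ± 0.0769 (log2, SE; adjusted p = 0.0187, edgeR), a 19.0% higher level, with a higher mean at 7 of 8 times. At ZT21 the sh-Ctl replicates had 450, 530, 532 and 593 CPM and the sh-Acsf3 replicates 665, 896, 884 and 577 CPM. Of those 4 sh-Acsf3 libraries, which hold 0.839 to 1.93 M UMIs against 2.50 to 3.24 M in the controls, 3 were above every control and 1 was inside the control range. The other stalk genes did not pass: Rplp1, the partner of Rplp2, differed by 0.04 ± 0.0483 and Rplp0, their anchor, by 0.02 ± 0.0413.

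The Rplp2 level followed the depth of the library in both treatments. In libraries under 2 M UMIs, it had a median of 729 CPM in the 3 sh-Ctl libraries (594 to 788) and of 714 CPM in the 16 sh-Acsf3 libraries (524 to 903). In libraries of at least 2 M UMIs, the medians were 471 CPM in 29 sh-Ctl libraries (403 to 593) and 443 CPM in 16 sh-Acsf3 libraries (387 to 644). Within each depth range the treatments overlapped over most of their range. In a fit restricted to these 45 deeper libraries, chosen after seeing the data and with treatment and time as additive terms, the Rplp2 difference was -0.02 ± 0.0519 (adjusted p = 0.870). That fit has no sh-Acsf3 library at ZT21. With log2 total UMIs as a term in the full model, the difference was 0.16 ± 0.0548 (adjusted p = 0.0397).

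Depth moved with other members as well. The slope on log2 total UMIs passed the test in 14 of 79 members (17.7%), beside 7.4% of all genes. Among genes of at least 50 CPM it passed in 261 of 1750, a share close to that of the members. It fell in 13 of the 14 members, beside 5.42% of all genes, and rose in 1 (Rpl21), beside 1.98%. The 4 steepest slopes, per doubling of UMIs, were -0.38 ± 0.0581 for Rpl29, -0.35 ± 0.0401 for Rpl14, -0.33 ± 0.0448 for Rplp2 and -0.32 ± 0.0450 for Rpl28. All 4 had a positive treatment difference in the fit without depth, and Rplp2 alone passed: Rpl29 was at 0.17 ± 0.0916, Rpl28 at 0.11 ± 0.0745 and Rpl14 at 0.08 ± 0.0734. With depth as a term, 5 members were called, Rplp2 higher and Rpl18, Rpl34, Rpl41 and Rps6 lower, beside 14.2% of all genes. In that fit Rpl29 was at 0.06, Rpl28 at 0.02 and Rpl14 at -0.01. In the deeper libraries alone, 1 of 80 members tested was called (Rpl14, -0.20 ± 0.0637, adjusted p = 0.0432), beside 7.15% of genes, and the median over members was -0.04.

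**Figure D3:**
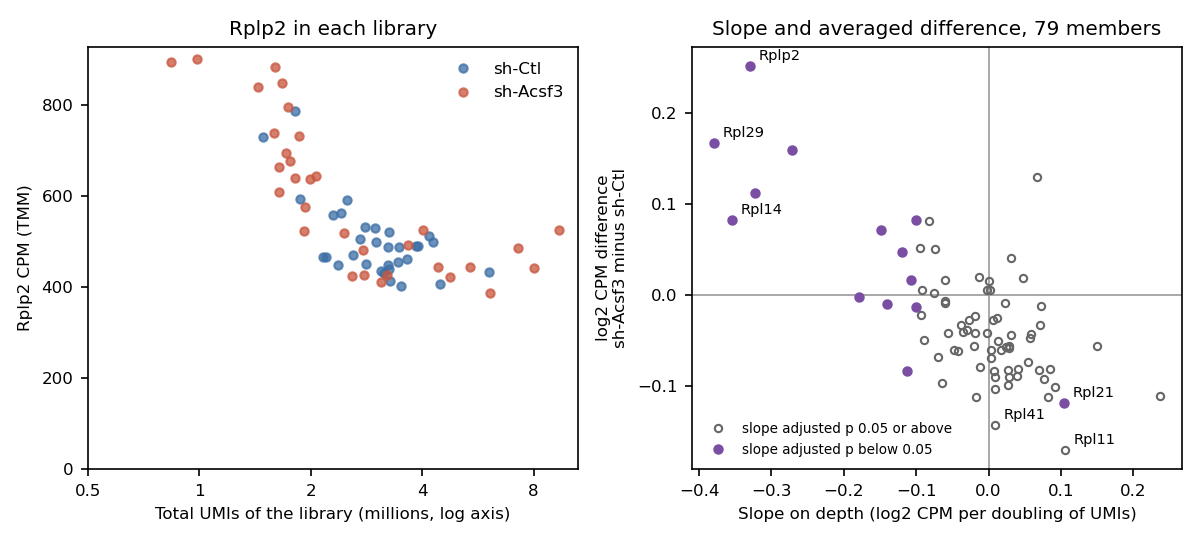
Left, Rplp2 level (TMM CPM) in each library against its total UMIs (M, log axis), by treatment. Right, slope on depth (log2 CPM per doubling of UMIs) against the averaged treatment difference for the 79 members. The libraries under 2 M UMIs, 3 sh-Ctl and 16 sh-Acsf3, hold nearly all the high Rplp2 values, and Rplp2, Rpl29 and Rpl14 combine a steep negative slope with a positive difference.

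The 3 members called lower all belong to the large subunit. Rpl11, which with Rpl5 and the small 5S RNA forms the particle that binds Mdm2, ranged from 366 to 730 CPM in sh-Ctl (median 613) and from 284 to 722 CPM in sh-Acsf3 (median 541). Its difference was -0.17 ± 0.0602 (adjusted p = 0.0439), lower at 7 of 8 times. Rpl5 was at -0.05 ± 0.0387 and did not pass. At ZT0 Rpl11 had 693, 504, 687 and 514 CPM in sh-Ctl and 284, 337, 722 and 477 CPM in sh-Acsf3, so that 3 knockdown libraries were under every control and 1, the deepest library of the series, was above them all. Rpl41, the shortest ribosomal protein, ranged from 866 to 1395 CPM in sh-Ctl (median 1180) and from 754 to 1232 CPM in sh-Acsf3 (median 1060), a difference of -0.14 ± 0.0481 (adjusted p = 0.0328). Rpl21 ranged from 116 to 169 CPM (median 144) and from 99.3 to 170 CPM (median 131), a difference of -0.12 ± 0.0394 (adjusted p = 0.0299). In each of these genes the 2 treatments overlapped over most of their range. Their coordinates are chr4:136028265-136053428 on the minus strand for Rpl11, chr10:128548114-128549305 on the minus strand for Rpl41 and chr5:146832890-146837032 on the plus strand for Rpl21. In the deeper libraries Rpl11 was at -0.20 (adjusted p = 0.155) and Rpl41 at -0.14 (adjusted p = 0.173), while Rpl21 was at -0.04 (adjusted p = 0.751).

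The 4 calls were not stable under every alternative run. Rplp2 passed in all 64 fits that each left out 1 library, with differences from 0.21 to 0.28, but not without replicate number 3, without replicate number 4 or without the 4 sh-Ctl libraries with high Saa1 (adjusted p = 0.0529). Rpl41 lost its call without sh-Ctl ZT21 replicate 4, sh-Acsf3 ZT0 replicate 4 or sh-Acsf3 ZT21 replicate 4 (adjusted p up to 0.0547). Rpl21 lost it in 8 of the 64 fits (up to 0.0589) and Rpl11 in 36 (up to 0.0725). Over 19 other alternatives, Rpl11 lost its call in 10, Rpl21 in 9 and Rpl41 in 7, while Rplp2 lost it in 3 and changed sign in 1, the deeper libraries. Other members lay close to the threshold, among them Rpl34 at -0.11 ± 0.0415 (adjusted p = 0.0548), Rps27l at -0.08 ± 0.0325 (adjusted p = 0.0692) and Rps6, the substrate of the S6 kinases, at -0.10 ± 0.0404 (adjusted p = 0.0950). Rps27l had a lower mean at all 8 times, as had Rpl4, Rpl34, Rpl39, Rps7 and Rps27a, whose protein is made as a fusion with ubiquitin. These are 6 of 79 members (7.59%), beside 4.31% of all genes, and no member was higher at all 8 times, beside 5.73%. These shares were not counted among genes of at least 50 CPM, of which 69% were below 0 in the averaged contrast, so abundant genes may differ.

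At no single time was any member called. Over the 8 times, the edgeR test called 0 of 632 member differences, beside 0.384% over all genes, and the share of all genes called was 0.515% at ZT0, 0.0693% at ZT3, 0.218% at ZT6, 0.357% at ZT9, 1.4% at ZT12, 0.0297% at ZT15, 0.168% at ZT18 and 0.317% at ZT21. DESeq2 and limma-voom also called 0. An unadjusted p below 0.05 was found for 13 of the 632 (2.06%), beside 8.44% over all genes. The 4 sh-Ctl and the 4 sh-Acsf3 values did not overlap in 11 of the 632 (1.74%), beside 4.94%. The largest differences were 0.52 for Rplp2 at ZT21 and 0.46 for Rplp2 at ZT12 upward, and -0.47 for Rps4l at ZT12 and -0.39 for Rpl11 at ZT0 downward. The smallest adjusted p at any time was 0.247, for Rps16 at ZT12 (329 ± 23.9 CPM in sh-Ctl and 400 ± 52.0 CPM in sh-Acsf3, SD, n = 4 each). Rps18 at ZT21 had 258, 272, 267 and 260 CPM in sh-Ctl and 214, 234, 200 and 225 CPM in sh-Acsf3, groups that did not overlap, with a difference of -0.28 ± 0.107 (adjusted p = 0.262, edgeR). Leaving out the deepest library, sh-Acsf3 ZT0 replicate 3, gave 1 call, Rpl11 at ZT0. The test that the 8 differences are equal called 0 members and 0 genes (0% of those tested). At an unadjusted p below 0.05 it had 0 members, beside 3.04% of genes, and the smallest member p was 0.0743 (Rpl36al).

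Daily variation was small and, on the TMM scale, its fitted peaks fell late in the day's cycle. A 24 h cosine was fitted per treatment, and its amplitude is the distance from the mean to the peak in log2 CPM. The median amplitude of the members was 0.07 in sh-Ctl and 0.08 in sh-Acsf3, a 1.10-fold and a 1.11-fold change from trough to peak. Over all genes the medians were 0.15 and 0.16, and over genes of at least 50 CPM 0.11 and 0.12. The rhythm passed in 4 of 79 members in sh-Ctl, Rpl6, Rpl18 and Rps18 among them, beside 19.4% of all genes. It passed in 5 in sh-Acsf3, Rpl35a, Rpl6, Rpl3 and Rplp0 among them, beside 19.6%. Among genes of at least 50 CPM the shares were 29.8% and 30.1%. Rpl6 passed in both, beside 11.7% of genes. The difference in rhythm between the treatments was called for 0 members and 0 genes (0% of those tested), and at an unadjusted p below 0.05 for 0 members, beside 4.26% of genes. A rhythm called in 1 treatment alone is therefore not shown to differ from the other.

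Rpl6, a large subunit protein, was lowest in sh-Ctl at ZT9 with 267 ± 26.2 CPM and highest at ZT15 with 333 ± 14.4 CPM (SD, n = 4 each). In sh-Acsf3 it was lowest at ZT6 with 277 ± 8.34 CPM and highest at ZT15 with 341 ± 23.7 CPM. Its amplitude was 0.14 ± 0.0285 with a peak at ZT20.1 ± 0.792 h in sh-Ctl (adjusted p = 0.00984) and 0.13 ± 0.0334 with a peak at ZT17.7 ± 0.988 h in sh-Acsf3 (adjusted p = 0.0136, edgeR). Both calls were kept in all 64 fits that left out 1 library. Among 18 other alternatives the sh-Ctl call was lost in 5 (adjusted p up to 0.131) and the sh-Acsf3 call in 4 (up to 0.132), among them library size alone, leaving out replicate number 1 or 2, and a test of any difference among times. Rpl35a had the widest called rhythm, from 207 ± 8.15 CPM at ZT9 to 295 ± 27.7 CPM at ZT0 in sh-Acsf3, with an amplitude of 0.20 ± 0.0453 and a fitted peak at ZT21.1 (adjusted p = 0.00929). In sh-Ctl the same gene spread from 177 to 373 CPM, and its amplitude of 0.11 ± 0.0610 did not pass (adjusted p = 0.253). Rpl3, which lines the peptidyl transferase centre, had an amplitude of 0.17 ± 0.0502 in sh-Acsf3 (adjusted p = 0.0248) and of 0.12 ± 0.0477 in sh-Ctl (adjusted p = 0.201).

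Other called rhythms were weaker. In sh-Ctl, Rpl18 had an amplitude of 0.13 ± 0.0405 (adjusted p = 0.0329) and Rps18 of 0.12 ± 0.0271 (adjusted p = 0.0488). In sh-Acsf3, Rplp0 had 0.13 ± 0.0402 (adjusted p = 0.0337). Without 1 library, Rpl35a kept its call in all 64 fits, Rpl3 lost it in 4, Rpl18 in 6, Rplp0 in 8 and Rps18 in 55. Rpl18, Rps18, Rpl35a and Rpl3 overlap genes on the opposite strand (Sphk2, Vps52, Gm17106 and Syngr1), and whether strand was used in counting is not given in the sources used here.

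**Figure D4:**
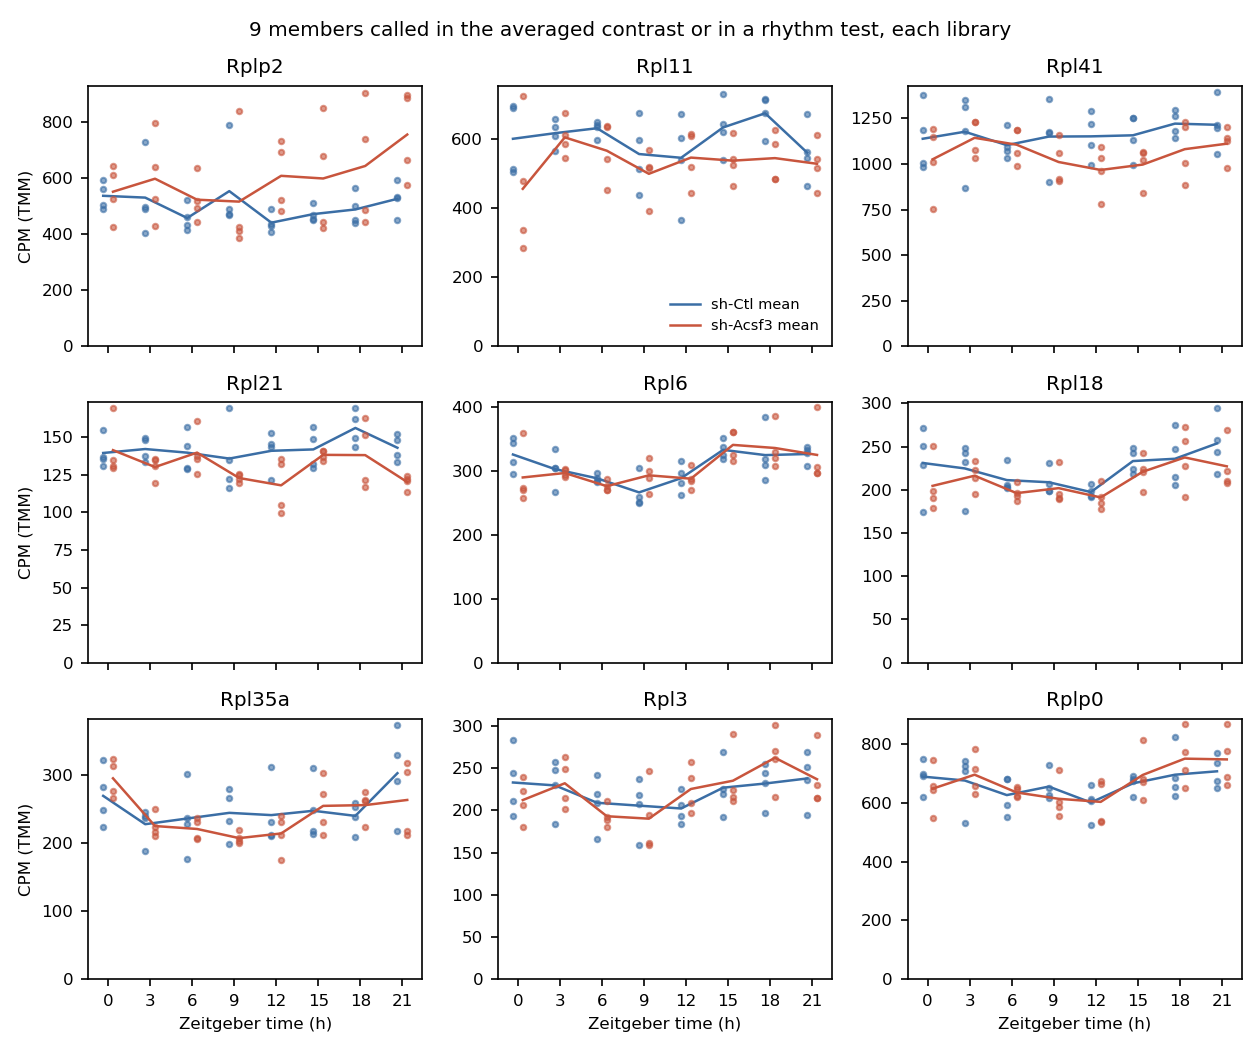
TMM CPM of 9 members in each sh-Ctl and sh-Acsf3 library (points) by Zeitgeber time (h), with the mean of the 4 libraries at each time (lines) and axes from 0. Rplp2 is higher in sh-Acsf3 at 7 of 8 times with a wide spread, and Rpl6 is highest at ZT15 in both treatments.

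Fitted on the TMM scale, the members' peaks gathered in one stretch of the day in both sets of mice. The part of the scaling in this was not tested. In sh-Ctl 63 of 79 members peaked between ZT15 and ZT24, beside 36.2% of all genes and 47.2% of genes of at least 50 CPM. In sh-Acsf3 62 of 79 did, beside 36% and 49.9%. Of 37 tested proteasome subunits, 4 did so in sh-Acsf3 and 0 in sh-Ctl, and of 76 tested mitochondrial ribosomal proteins 28 and 37. Most single peaks were imprecise, as most members did not pass alone. A test of the average rhythm of both treatments, added after seeing the data, called 22 of 79 members, beside 35.4% of all genes and 49.3% of genes of at least 50 CPM. All 22 peaked between ZT16.6 and ZT21.8, while 34.7% of the 3571 genes called by that test peaked from ZT15 on. Their amplitudes ran from 0.07 to 0.16. Rpl6 (0.13), Rpl35a (0.16), Rpl18 (0.12) and Rpl23 (0.09) had some of the smallest p-values, and the laminin-receptor gene Rpsa (0.09, peak at ZT21.7, adjusted p = 0.0246) and Rps6 (0.10, peak at ZT16.6, adjusted p = 0.0162) were among the rest. The summed share of UMIs, which takes no TMM scaling, had a cosine amplitude of 0.0541 ± 0.0462 percentage points (SE) in sh-Ctl, near the size of its SE. In sh-Acsf3 the amplitude was 0.0617 ± 0.0353 percentage points, larger than its SE. The share's fitted peaks were at ZT21.6 in sh-Ctl and ZT16.9 in sh-Acsf3.

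**Figure D5:**
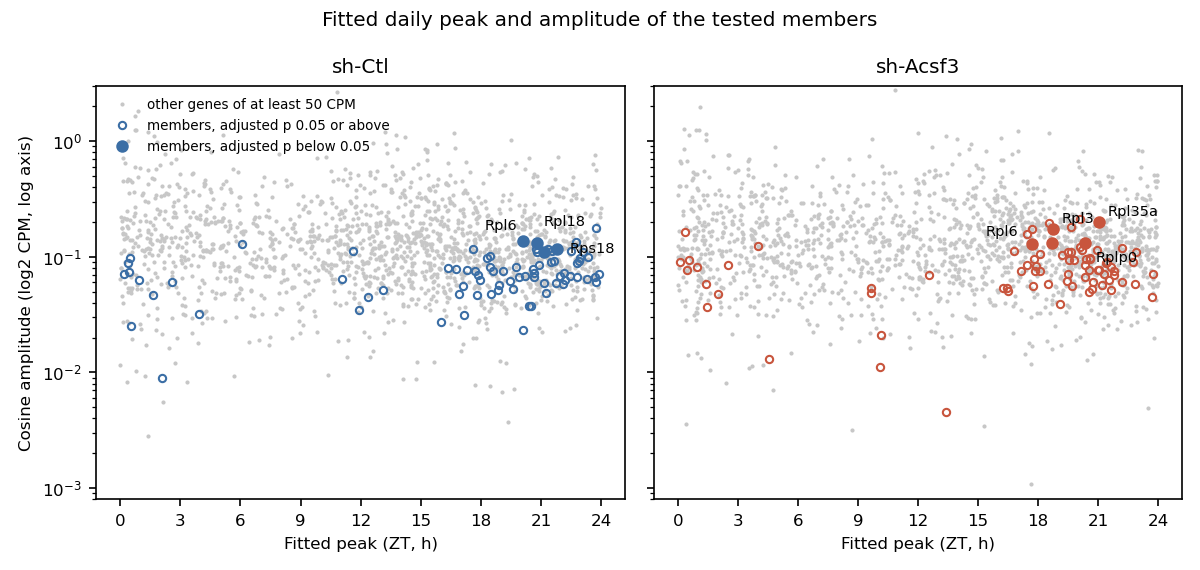
Fitted peak (ZT, h) against cosine amplitude (log2 CPM, log axis) of the 79 tested members in sh-Ctl (left) and sh-Acsf3 (right), over other genes of at least 50 CPM (grey). 63 and 62 members peak between ZT15 and ZT24, mostly at amplitudes under 0.1, the filled points are the 4 and 5 members called, and those described in the text are named.

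On the TMM scale, the members moved together from one library to the next. In 15 of the 64 libraries at least 60 of the 79 members were above the mean of their own group, and in 16 at least 60 were below it. In sh-Ctl ZT18 replicate 1, 76 members were above the group mean, with a median deviation of 0.16 (log2), and in replicate 2 of the same group 5 were above it, with a median of -0.19. The medians over all genes in those libraries were 0.01 and 0.02, but TMM scaling keeps such medians near 0, so they are no comparison. In sh-Ctl ZT21, replicates 1 and 4 had summed shares of 2.71% and 2.70% and TMM factors of 1.06 and 0.863. There 6 and 71 members were above the group mean. The part of the scaling in this joint movement was not tested. In the shallowest library, sh-Acsf3 ZT21 replicate 2 with 0.839 M UMIs, 74 members were above their group mean and the summed share was 3.20%. The members are thus not independent of each other within a library, and counts of members are not counts of separate observations.

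The rest of the translation machinery was described from lists. Of the 6 other ribosomal or ribosome-bound genes tested, 0 were called in the averaged contrast, and Rps3a1 had a called rhythm in both treatments (adjusted p = 0.00856 and 0.000445) with peaks at ZT20.5 and ZT18.7. Of 18 elongation factors and other TOP mRNAs, 0 were higher and 3 lower: Eif3e (-0.13 ± 0.0398, adjusted p = 0.0198), a subunit of initiation factor eIF3, the poly(A)-binding protein gene Pabpc1 (-0.11 ± 0.0331, adjusted p = 0.0203) and Eif4b (-0.16 ± 0.0503, adjusted p = 0.0229), a helper of the eIF4A helicase. Of 51 initiation factor genes, 2 were higher and 5 lower, and Eif4e3, a cap-binding protein of the eIF4E family, had the largest difference (0.95 ± 0.136). Of 54 ribosome biogenesis genes 2 were higher and 2 lower. Among 28 genes of mTORC1 and TOP control the only call was Deptor, an inhibitor of mTOR (-0.24 ± 0.0534, adjusted p = 0.000579). The background of 14.5% applies to each list.

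Mitochondrial ribosomal proteins and proteasome subunits also form large complexes. Beside 14.5% of all genes called, of 76 mitochondrial ribosomal protein genes, 1 was higher and 10 lower with a median of -0.08, and Mrps24 (-0.23 ± 0.0415) had the smallest p-value. Of 37 proteasome subunit genes, 1 was higher and 14 lower with a median of -0.11, and Psma7 (-0.18 ± 0.0365) had the smallest p-value. The difference between these counts and that of the cytosolic ribosomal proteins was not tested.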

How the data were processed

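RNA from 64 mouse liver samples was counted with a 3′ UMI method. The deposited values are whole-number counts of UMIs per gene, not normalized. The submitters' processing notes name STAR and GRCm38 (mm10). The annotation release, strand setting and treatment of multi-mapped reads are not given in the sources used here. Of 55487 IDs, 55227 matched GENCODE M21, all 84 members among them.

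Genes passed edgeR 4.0.16 filterByExpr (R 4.3.3; minimum count 10, minimum total 15), and library sizes were corrected by TMM. Quasi-likelihood fits over all 10097 genes used 16 group means, for the averaged effect, the effect at each time and the interaction, or a 24 h cosine per treatment. All tested genes entered the Benjamini-Hochberg adjustment, and 0.05 was the threshold. Amplitudes, peaks and SEs came from least squares on log2 CPM (prior count 2), and 95% intervals are 1.96 SE wide on each side. The fits were also run on simulated counts, drawn independently for each gene with the same spread and no effect of depth. The outcome of that run is not reported here.

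Named genes were Acsf3, members called in the averaged contrast or a rhythm test, those with the smallest p for the interaction or at a time, the 3 highest and 3 lowest levels, paralogs with partners, Rpsa and the stalk genes, and up to 4 genes a list. Members named for depth, the average rhythm, the same sign at all times or a p near the threshold were chosen after their values were seen. The results of some members are not reported here. The members and lists were chosen with earlier results of these data known. Alternatives covered scaling, filters, tools (DESeq2 1.42.0, limma 3.58.1 voom), depth, a replicate block and left-out libraries. No 2 replicates agreed within sampling noise (lowest chi-square per degree of freedom 2.84 over 96 pairs).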

Additional observations from a re-analysis of the deposited data

Results flagged for a closer look

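The summed share and each called member were examined within the same 16 groups of 4 libraries, 208 comparisons in all. In 10 of the 208, 1 value lay far from the other 3. Chance alone gives about 1 in 20, a share close to that found. Members vary together within a library, so the comparisons are not independent. Rplp2 had 839.7 CPM in sh-Acsf3 ZT9 replicate 4 (others 387 to 426) and 788 CPM in sh-Ctl ZT9 replicate 2 (others 467 to 488), libraries of 1.44 and 1.81 M UMIs (M, mega). Rpl6 had 359 CPM in sh-Acsf3 ZT0 replicate 1 (others 258 to 273) and 400.3 CPM in sh-Acsf3 ZT21 replicate 2, the shallowest library (others 297 to 307). Rpl18 had 232 CPM in sh-Acsf3 ZT9 replicate 4 (others 190 to 196) and 234 CPM in sh-Ctl ZT6 replicate 3 (others 202 to 205). In sh-Ctl ZT3 replicate 2, Rplp0 was low at 532 CPM (others 708 to 742) and Rpl35a was low at 189 CPM (others 236 to 245), and 6 of 79 members there were above the group mean. Rpl3 had 290.4 CPM in sh-Acsf3 ZT15 replicate 4 (others 211 to 224). Rpl21 had 169.6 CPM in sh-Acsf3 ZT0 replicate 3, the deepest library (others 130 to 135.1).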

How the results depend on the processing

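The count of members called at single times, for the interaction and for a difference in rhythm was 0 under all 17, 17 and 16 alternatives run. With library size alone, 5 members were higher and 0 lower, beside 1110 higher and 250 lower among all genes. The members' median was then 0.0097. In that run the rhythm was called in 1 member in sh-Ctl, 3 in sh-Acsf3 and 9 for the average of both treatments. Without a gene filter the rhythm counts were 1, 2 and 10. With a mean of at least 5 CPM required, 0 members were lower, and with limma-voom 5. Without the pancreas libraries 1 member was lower (Rpl41), with rhythm counts of 2 and 3. Without the libraries high in Saa1, 0 were higher. Without the shallowest library the sh-Acsf3 rhythm count was 2. Cosines of 24 h and 12 h gave 2 and 2, and a test of any difference among times with 7 degrees of freedom gave 0 and 0. The summed share outside mitochondrially encoded rows was 3.36% and 3.45%. In libraries of at least 2 M UMIs, 0 members were higher and 1 lower, with Rplp2 at -0.023 and Rplp0 at -0.051; with depth as a term Rplp0 was at -0.0088. Beyond fewer samples or another scale, the cause was not tested. For most of these runs the share of all genes called is not reported here. The counts alone do not tell whether the members moved apart from other genes.

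Leaving out each replicate number gave 0 to 2 members higher, 0 to 7 lower, rhythm counts of 0 to 1 and 0 to 12, and 8 to 30 for the average rhythm. Leaving out single libraries gave 1 higher, 1 to 5 lower, rhythm counts of 1 to 8 and 2 to 10, 16 to 30 for the average, and 0 to 1 at single times. Replicate numbers did not pair the samples: 7 of 32 same-numbered pairs correlated above 0.1 (-0.16 to 0.26), and 8 of 32 matched their own number best. With the replicate block, 1 member was higher and 3 lower, and the rhythm counts were 5, 6 and 23. For none of the runs in this paragraph is the share of all genes called reported here, so the same limit applies. Shallow sh-Acsf3 libraries limit what can be said of the members that vary with depth.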
